A study of Caenorhabditis elegans with 2 samples.

Results

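Regions of UNC-39 signal in coding exons of C. elegans chromosomes II to V were common in the relaxed peak list of the pooled replicates and rare in the reproducible list. A region was kept when its summit (the point source given in the list, which is the middle of the region in nearly all of them) lay in a coding exon of a protein-coding gene and in no untranslated region (UTR). The summit also had to lie outside the 1000 bp upstream of any protein-coding transcription start site and more than 200 bp from any tRNA, snoRNA or snRNA gene. This left 1421 of the 9046 regions of the pooled relaxed list, or 1421 of the 5837 that have their summit on chromosomes II to V.

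The data come from chromatin immunoprecipitation followed by sequencing (ChIP-seq), which recovers DNA fragments attached to a chosen protein. Whole mixed-stage embryos of pooled sex from strain OP186, unc-119(ed3) III; wgIs186, were used, in 2 biological replicates that form 1 group. All animals thus carried the eGFP-tagged unc-39 transgene and the unc-119 mutation, the fragments were 150 to 350 bp, and no other genotype or stage was compared. The labels describe a precipitation of eGFP-UNC-39 and list unc-39 as the antibody, so which antibody was used is not settled, and the control library was not analysed here. A relaxed list is a long peak list that deliberately includes background. The irreproducible discovery rate (IDR) procedure then keeps the regions whose ranks are reproducible between replicates. A whole-embryo sample averages all cell types, so few cells with much UNC-39 and many cells with little cannot be told apart.

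UNC-39 belongs to the Six4 and Six5 class of homeodomain transcription factors, and in C. elegans it acts in mesoderm development, in cell migration and in the AIA interneurons. Such factors bind short DNA sequences, and the binding sites known to regulate genes lie mostly in promoters, introns and intergenic enhancers. Coding exons are transcribed and constrained by the protein they encode. In C. elegans they are richer in G and C than introns and intergenic sequence.

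The sequences under the 8 strongest coding exon summits are shown because they hold every one that the IDR procedure kept by its own summit, together with those next in signal. Each is the run of 30 bases around the summit on the coding strand of the host gene, from the RefSeq copy of the WBcel235 (ce11) assembly, with no capitals because no motif is marked.
dos-3 (chrIII:835980-836009, minus strand): ccacataatcgcgatcatgctaacaaatac
asp-15 (chrV:19044372-19044401, minus strand): gctcactgtaaagaatcaagaatttgcagt
cnt-2 (chrIII:10673027-10673056, plus strand): tctttcccgagcaattcgacgcgtcgaaat
lin-42 (chrII:1236452-1236481, minus strand): tggatattttaagctacttgtacgatcttg
Y69H2.3 (chrV:18659213-18659242, minus strand): cccagtcggcggttgcgccactatgagatg
clec-78 (chrIV:4012216-4012245, plus strand): tggagagtaccagccactcactgcccgaac
cdk-5 (chrIII:13465017-13465046, minus strand): atttttcagccctacccaatctaccatcca
pot-3 (chrIII:13780612-13780641, plus strand): tagtcttgcagtccggtaatttcgtggcta

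Few coding exon regions contained a short sequence that was frequent at IDR regions. The windows below hold the 3 strongest coding exon regions with GAGAGAGA (flcn-1, lin-5 and ama-1), with GAGACGCA (cla-1, nhr-121 and Y56A3A.2) and with TGACACC (trpa-1, flcn-1 and F10E7.9), the last a sequence known for Six4-type proteins of vertebrates. Capitals mark the match, and each window is written on the strand that carries it. Matches were sought within 100 bp of the summit and need not lie in the coding exon. The lin-5 match lies at -75 bp from a summit at base 19 of the coding sequence. That match is thus upstream of the coding exon.
flcn-1 (chrII:6936162-6936191, minus strand): taagaataaggGAGAGAGAagagggatatc
lin-5 (chrII:7860588-7860617, minus strand): agcgaaagaacGAGAGAGAacgcatacata
ama-1 (chrIV:4252458-4252487, plus strand): atgccgtgtttGAGAGAGAtttcagagtga
cla-1 (chrIV:7611616-7611645, plus strand): atgatggatttGAGACGCAgagagaagagt
nhr-121 (chrIII:2449973-2450002, plus strand): tgactttcattGAGACGCAgacttcgttga
Y56A3A.2 (chrIII:11855618-11855647, plus strand): cagaatgactgGAGACGCAtgaaacatggc
trpa-1 (chrIV:11865228-11865257, plus strand): atggtgattttaTGACACCgcttcactatg
flcn-1 (chrII:6936141-6936170, plus strand): ctcataatttagTGACACCaggatatccct
F10E7.9 (chrII:7107539-7107568, plus strand): agattgtagaacTGACACCaacagcagata

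Of these genes, flcn-1 encodes folliculin, lin-5 a protein of the mitotic spindle, ama-1 the large subunit of RNA polymerase II, cla-1 a protein of the presynaptic active zone, nhr-121 a nuclear hormone receptor and trpa-1 a cation channel. Within 100 bp of the summit and on either strand, GAGAGAGA was found at 14 coding exon regions (0.985%), against 4.73% of all pooled regions and 14.1% of the IDR regions on chromosomes II to V. It lay in 0.574% of windows of the same length centred on every coding base that meets the rule. GAGACGCA was found at 7 coding exon regions (0.493%), against 3.70% of pooled regions, 12.2% of IDR regions and 0.355% of coding windows. The 2 sequences share their first 4 bases, GAGA, but cannot overlap by more than that. TGACACC lay at 43 coding exon regions (3.03%), against 3.82% of pooled regions, 5.77% of IDR regions and 2.03% of coding windows. The E-box CAGCTG, a site of bHLH proteins, lay at 99 coding exon regions (6.97%), against 5.70% of pooled regions, 8.97% of IDR regions and 6.51% of coding windows. The interval of the coding exon share lay above the share of coding windows for TGACACC and included it for the other sequences. The coding windows were not matched for GC content. The GA-type sequences are named here as frequent at IDR regions, so their higher share there than at coding exon regions carries no conclusion. In the 142 strongest coding exon regions the shares were 2.11% for GAGAGAGA (0.438 to 6.05) and 1.41% for GAGACGCA (0.171 to 4.995). A match is a run of letters and does not show that a protein was bound.

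Coding exons held 24.3% of the pooled relaxed summits on chromosomes II to V (1421 of 5837; exact 95% interval 23.2 to 25.5) and 1.28% of the IDR summits there (2 of 156; 0.156 to 4.55). The bases that meet the rule, 14.3 Mb, make up 21.2% of these chromosomes. The relaxed share was thus a little above the share of sequence, and the interval of the IDR share lay far below both. Promoters, the 1000 bp upstream of a start site, took 28.6% of pooled summits, 50.6% of IDR summits and 23.5% of bases. Introns took 22.0% of pooled summits, 8.97% of IDR summits and 27.8% of bases. Intergenic sequence took 16.3% of pooled summits, 13.5% of IDR summits and 20.6% of bases. The density of pooled summits was 99.3 per Mb in coding exons, against 105 per Mb in promoters, 68.7 in introns, 68.3 in intergenic sequence and 86.5 in all. These intervals and those that follow cover counting error only.

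**Figure D1:**
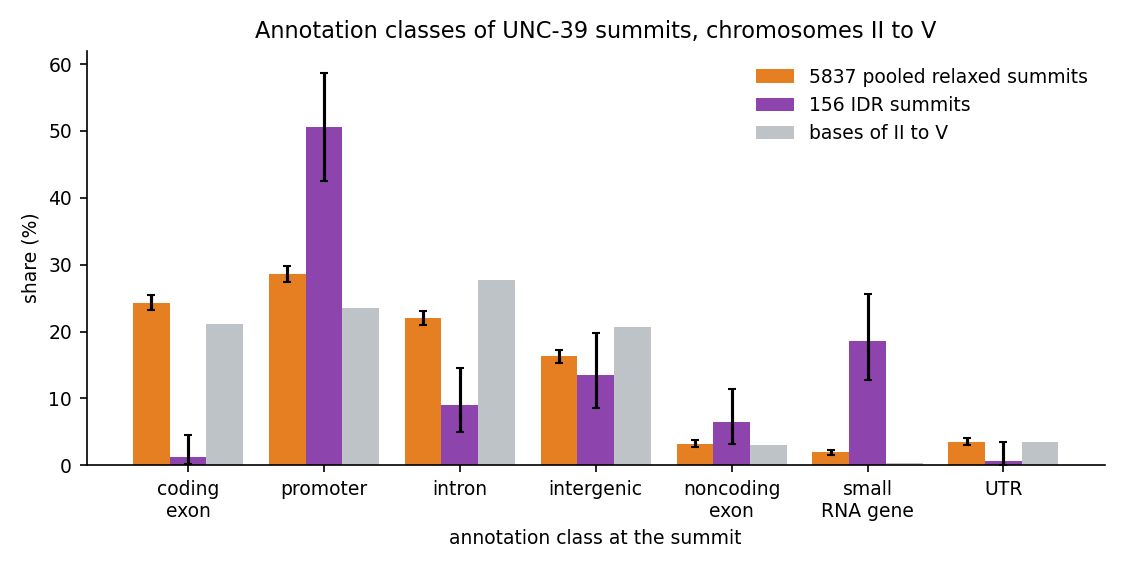
Share of summits or bases (percent, y axis) in each annotation class (x axis) on chromosomes II to V, for pooled relaxed summits, IDR summits and bases; error bars are exact 95% binomial intervals. The coding exon bar falls to 1.28% for IDR summits, against 24.3% for pooled summits and 21.2% of bases.

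The contrast between the lists is one of rank. All 267 IDR regions of the genome are the 267 pooled regions of highest signal, so the IDR list is the top of the pooled list and not an independent set. The signal is the score the authors' peak caller gave each region, and it was used within a list only. The lowest IDR signal was 44.4, and 2 coding exon regions lay at or above it. Pooled regions ranked 268 to 1000 had 12.9% of their summits in coding exons (58 of 448), those ranked 1001 to 3000 had 23.4%, those ranked 3001 to 6000 had 26.3% and the rest had 27.4% (547 of 1996). The share thus rose along the list. The interval of ranks 1001 to 3000 (21.1 to 25.8) held the 21.2% of sequence, and those of the last 2 groups lay above it.

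Both libraries showed low coding exon shares among their strongest peaks, at different levels. Among the 267 strongest peaks of the replicate 1 list, 5 of the 160 on chromosomes II to V were in coding exons (3.13%, 1.02 to 7.14). In the replicate 2 list it was 13 of 152 (8.55%, 4.63 to 14.2). At ranks 268 to 1000 the shares were 13.4% in replicate 1 and 24.1% in replicate 2, and at ranks 3001 to 6000 they were 22.2% and 31.2%. The replicate 2 list was thus richer in coding exons at each of these ranks, and over the whole lists the shares were 22.0% of 10370 and 29.1% of 19652 summits. The lists differ in length, at 15880 regions in replicate 1 and exactly 30000 in replicate 2 genome-wide. Whether the round number is a limit set on the list is not stated. If it is, the replicate 2 list stops at an imposed rank, and the overlaps with it depend on that limit.

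**Figure D2:**
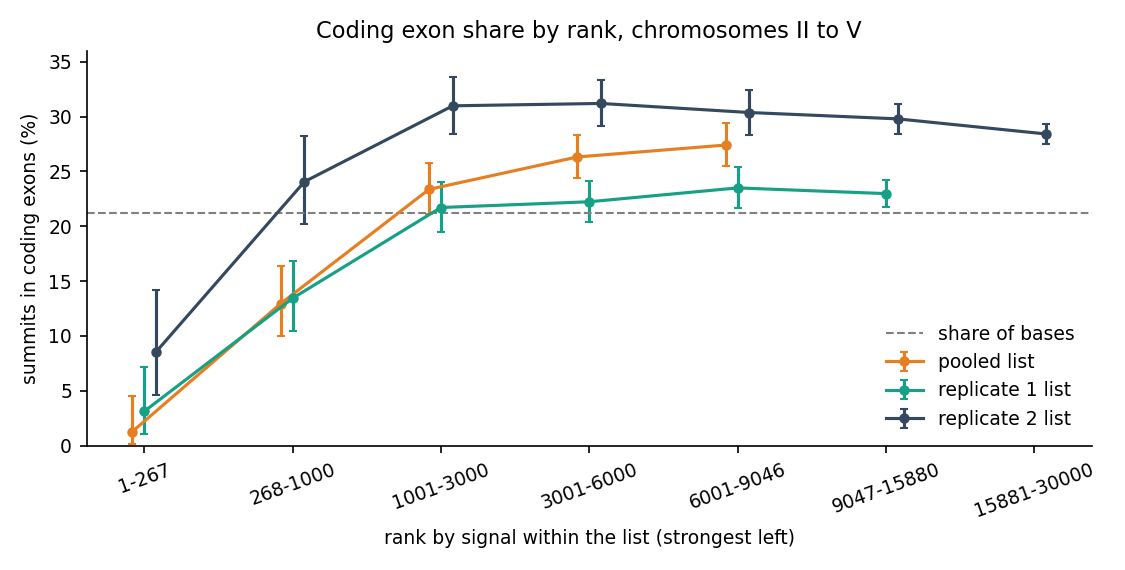
Share of summits in coding exons (percent, y axis) by rank of signal within each list (x axis, strongest at the left) for the pooled, replicate 1 and replicate 2 lists on chromosomes II to V; bars are exact 95% binomial intervals and the dashed line is the share of bases. All 3 lines start below the dashed line, at 1.28%, 3.13% and 8.55%, and the replicate 2 line levels off highest.

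The signal of coding exon regions was low and narrow. It ran from 18.3 to 55.1 with a median of 21.4 and quartiles of 19.6 and 24.2, against a median of 21.9 and a maximum of 172.6 over all pooled regions on chromosomes II to V. The medians of the classes were close, at 22.3 in promoters, 21.6 in introns and 22.0 in intergenic sequence, and the classes parted in the upper tail. A signal above 30 was reached by 82 coding exon regions (5.77%), against 12.1% of all pooled regions, 17.0% of promoter regions, 9.63% of intron regions and 12.5% of intergenic regions. Above 40 there were 6 coding exon regions.

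**Figure D3:**
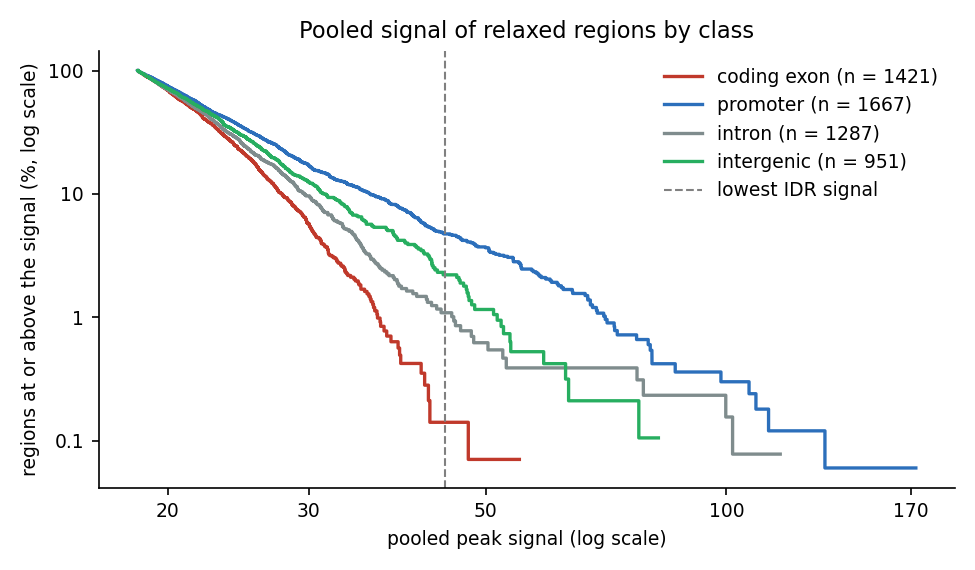
Share of regions at or above a given signal (percent, log scale, y axis) against pooled signal (log scale, x axis) for coding exon, promoter, intron and intergenic regions; the dashed line is the lowest IDR signal of 44.4. The 4 curves start together and the coding exon curve falls fastest, ending at 55.1.

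An IDR region was overlapped by 1 bp or more by 3 of the 1421 coding exon regions (0.211%, 0.0436 to 0.616). The same share over all pooled regions on chromosomes II to V was 2.95%, with 4.98% of promoter regions (83 of 1667), 1.55% of intron regions (20 of 1287) and 2.52% of intergenic regions (24 of 951). The coding exon interval excludes each of these shares. UTR regions were few and similarly weak. Of 208 of them, 2 overlapped an IDR region (0.962%, 0.117 to 3.43), 1 of the 156 IDR summits lay in a UTR, and their median signal was 21.03. Their interval includes the overlap shares of all pooled, intron and intergenic regions and overlaps that of coding exons. Regions in noncoding exons went the other way. Of 190 of them, 10 overlapped an IDR region (5.26%, 2.55 to 9.47), and 10 of the 156 IDR summits lay there (6.41%). With the replicate 2 list in place of the pooled list, 0.0699% of coding exon regions overlapped an IDR region, and with the replicate 1 list it was 0.262%. The IDR list is the upper tail of signal, so this share restates the scarcity of strong coding exon regions.

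The strongest of the 3 lay in dos-3, a gene of the DOS family of Notch co-ligands, at chrIII:835807-836182, in the last of 11 coding exons (412 bp). Its signal was 55.1 in the pooled list (rank 131), 26.9 in replicate 1 (rank 263) and 29.9 in replicate 2 (rank 95). It was the one coding exon region whose overlapping peaks were among the 267 strongest of both libraries. The deposited −log10 q value of its IDR region was 2.62. The GC content within 100 bp of its summit was 52.7%.

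The region in asp-15, an aspartyl protease gene, lay at chrV:19044199-19044574 in the first of 2 coding exons (807 bp). Its signal was 47.5 in the pooled list (rank 216), 17.9 in replicate 1 (rank 1434) and 32.3 in replicate 2 (rank 66), so its place in the IDR list goes with a far higher rank in replicate 2. The region in mnp-1, a peptidase homologue that takes part in embryonic muscle cell migration, lay at chrIII:4356554-4356929 with a pooled signal of 20.02 (rank 6502). It met the IDR list by 144 bp of overlap with a promoter region of signal 50.4, whose summit lay 232 bp away. The replicate peaks that overlap it, at 30.6 and 18.2, may belong to either summit. The mnp-1 gene held a second coding exon region with a signal of 28.7.

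Below the IDR limit came 4 regions with signals above 40. In cnt-2, a centaurin-type GTPase-activating gene, the signal was 42.5 (19.7 in replicate 1 and 22.0 in replicate 2). In lin-42, the Period homologue that times larval development, it was 42.4 (17.9 and 22.2), in a coding exon of 36 bp. In Y69H2.3 it was 41.9 (19.8 and 17.4). In the C-type lectin gene clec-78 it was 41.5 (16.1 and 22.4). These 4 ranked from 310 to 338 in the pooled list, and all 4 had a peak in both replicates.

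The other regions among the 15 strongest ran from 39.1 in cdk-5, a cyclin-dependent kinase gene with roles in neurons, down to 36.6 in F55A11.7. Between these lay pot-3 (38.99), a telomere-binding protein gene, the chemoreceptor gene srz-25 (38.8), ZK112.4 (38.0), trpa-1 (37.6), flcn-1 (37.3), ecps-1 (36.9), which encodes a proteasome adaptor, and R12B2.8 (36.9). The 2 libraries ranked several of them very differently. The pot-3 region had rank 57 in replicate 2 and rank 2557 in replicate 1, whereas the trpa-1 region had rank 288 in replicate 1 and rank 8389 in replicate 2.

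A peak in both replicate lists overlapped 704 coding exon regions (49.5%, 46.9 to 52.2), against 57.6% of all pooled regions on chromosomes II to V, 61.4% of promoter regions, 57.9% of intron regions and 58.7% of intergenic regions. The difference lay in replicate 1. Its list overlapped 925 coding exon regions (65.1%), against 73.6% of all pooled regions, while the replicate 2 list overlapped 1189 (83.7%), against 83.3%. Of the coding exon regions, 485 met replicate 2 alone, 221 met replicate 1 alone and 11 met neither list. When the pooled regions were cut by signal into 10 parts of equal size, the share found in replicate 1 was lower for coding exon regions than for the others in 10 of 10 parts, and the share found in replicate 2 was lower in 4 of 10. In the fifth part, for instance, 62.7% of 161 coding exon regions and 77.1% of 423 other regions met replicate 1. No test between libraries is possible with 1 library on each side, and the depth of the libraries is not stated, so its part was not tested.

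Support from both replicates followed the pooled signal among the coding exon regions themselves. The pooled list is derived from both replicates, so such a link is partly built in and does not measure reproducibility. In the strongest 10% of them, 121 of 143 had a peak in both lists (84.6%), and in the weakest 10% it was 41 of 142 (28.9%). The other pooled regions fell in the same way. In the strongest 10% of the pooled list, 95.3% of the others and 91.1% of coding exon regions had a peak in both. In the weakest 10% it was 31.0% and 29.4%. Over the 704 coding exon regions in both lists, however, the replicate 1 and replicate 2 signals were unrelated in rank, with a Spearman rho of -0.02. The rho was likewise near 0 for UTR regions, at 0.02. It was 0.27 for promoter regions, 0.09 for intron regions, 0.18 for intergenic regions and 0.18 over all pooled regions. Replicate summits of the 704 coding exon regions lay a median of 79 bp apart. Among the coding exon regions, 3 met one of the 267 strongest peaks of replicate 1, 10 met one of replicate 2 and 1 met both (0.0704%). Of all 5837 pooled regions, 79 met both (1.35%), with 44 promoter regions (2.64%), 7 intron regions (0.544%) and 6 intergenic regions (0.631%). All points in such a correlation passed the pooled list's own limit, so they are a selected set.

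The bases around coding exon summits were rich in G and C. The mean GC content within 100 bp of the summit was 43.5% ± 6.62 (SD, n = 1421 regions), against 39.8% ± 6.12 over windows centred on all coding bases that meet the rule. It was 40.6% for promoter, 39.7% for intron and 39.9% for intergenic regions. A content of 50% or more was found at 14.8% of coding exon regions, against 6.04% of coding windows. With the replicate 1 list in place of the pooled list the mean was 41.0%, nearer to that of coding windows, and with the replicate 2 list it was 42.5%. Within 50 bp of a point, the content was 44.5% at coding exon summits and 37.4% at 500 bp to either side, against 40.97% and 36.4% around all coding bases that meet the rule. GC content thus falls away from coding bases in general, and the excess of the summits was 3.52 percentage points at the summit and 1.08 at 500 bp. The other classes also fell from the summit to 500 bp. Promoter regions went from 41.5% to 36.5%, intron regions from 38.9% to 36.9% and intergenic regions from 40.2% to 34.5%. IDR regions on chromosomes II to V were richest at the summit, at 49.6%, and had 36.4% at 500 bp.

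The density of coding exon regions rose with GC content in steps. It was 38.0 per Mb of coding sequence below 35% GC, 70.9 from 35 to 40%, 116 from 40 to 45%, 175 from 45 to 50% and 244 at 50% or more (211 regions; exact Poisson 95% interval 212 to 279). Signal followed GC content weakly, with a Spearman rho of 0.15 over the 1421 regions. At 50% GC or more, a signal above 30 was found at 9.95% of coding exon regions, against 40.6% of 175 promoter regions, 25.3% of 79 intron regions and 32.9% of 76 intergenic regions. An IDR region was overlapped by 1 of the 211 coding exon regions at this GC content, against 25 promoter regions, 4 intron regions and 8 intergenic regions. Below 35% GC the shares above a signal of 30 were close, at 3.31% of coding exon regions, against 4.58% of promoter regions, 3.78% of intron regions and 3.08% of intergenic regions. From 35% upward the coding exon share was the lowest of the 4 classes in each GC step. What part library preparation or sequencing has in the GC content of the relaxed list was not tested.

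**Figure D4:**
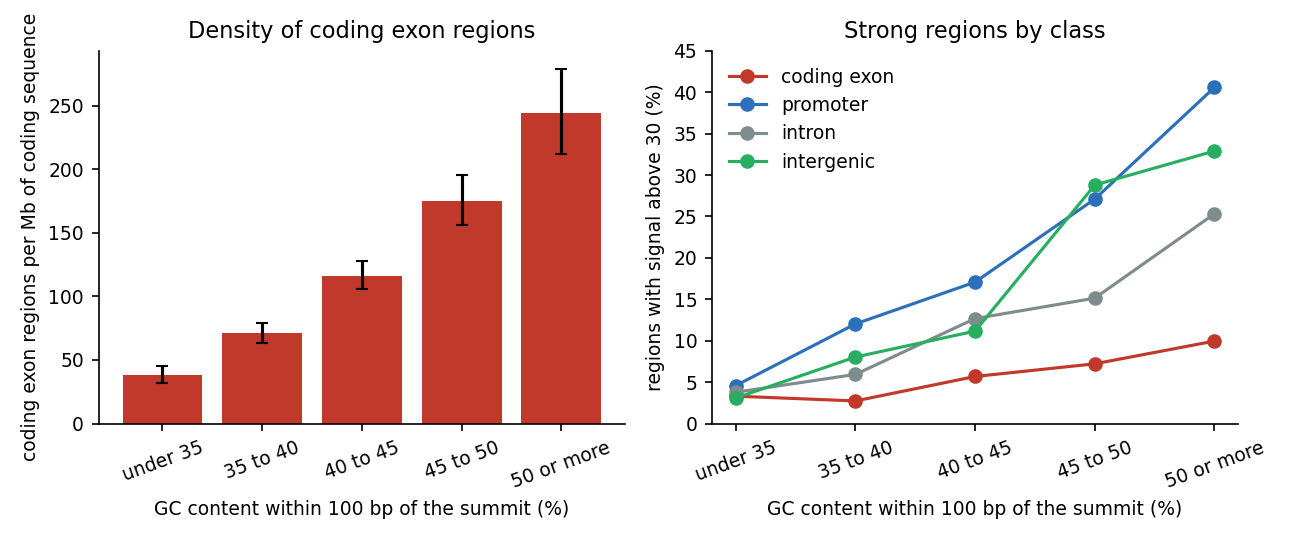
Left, coding exon regions per Mb of coding sequence (y axis) by GC content within 100 bp of the summit (percent, x axis), with exact Poisson 95% intervals; right, share of regions with a signal above 30 (percent, y axis) by the same GC content for coding exon, promoter, intron and intergenic regions. The density reaches 244 per Mb at 50% GC or more, where 9.95% of coding exon regions and 40.6% of promoter regions exceed a signal of 30.

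Position within the coding sequence was close to that of coding bases at large. Of the summits, 33.5% lay in the first of 3 equal parts of the coding sequence, 33.5% in the middle part and 33.0% in the last, against 33.2%, 35.2% and 31.6% of coding bases. The first coding exon held 12.9%, against 11.7% of bases, and the last held 14.6%, against 14.8%. A start site lay within 1000 bp on the upstream side of 42.6% of summits, against 42.5% of bases. Coding exon regions thus did not gather at the ends of coding sequences, nor just downstream of start sites.

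Exon size and chromosome place differed more. The median host exon was 333 bp, against 271 bp for coding bases, and 32.2% of summits lay in exons of over 500 bp, against 24.97% of bases. The summit lay a median of 81 bp from the nearest exon end, against 60 bp. The outer parts of the chromosomes (the first and last of 3 equal parts) held 66.2% of coding exon regions, against 60.2% of the coding bases. By chromosome the density was 102 per Mb on II, 115 on III, 92.7 on IV and 91.7 on V. Windows in which 50% or more of the 31-base words recur in the genome made up 0.281% of coding exon regions (4 regions). They made up 3.97% of coding windows, so repeated gene copies were nearly absent among coding exon regions. The share was also low over all pooled regions on chromosomes II to V, at 0.445%. This scarcity was thus shared by the pooled list at large and was not particular to coding exons. The treatment of reads that map to several places is not stated.

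Most coding exon regions had no other pooled summit within 1000 bp. The nearest other pooled summit lay a median of 3309 bp away, and 188 regions (13.2%) had such a summit within 1000 bp. An IDR summit lay within 1000 bp of 8 coding exon regions. These distances were not computed for other classes or for all pooled regions. Whether coding exon regions are spaced differently from the rest of the list was thus not tested. At the distance limits of the rule, the 73 coding summits from 801 to 1000 bp upstream of a start site, which were left out, had a median signal of 21.4 and a maximum of 37.8. The 84 from 1001 to 1200 bp, which were kept, had 21.6 and 31.6. The 13 coding summits within 200 bp of a small RNA gene that were left out had a median signal of 21.5, and the 6 beyond that, up to 400 bp, had 23.3.

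The regions lay in 1250 host genes, or 9.37% of the 13338 genes with coding bases that meet the rule. Most hosts (1119) had 1 region, 131 had 2 or more and 24 had 3 or more. Hosts were longer, with a median of 1408.5 such coding bases, against 865.5 over all 13338 genes. Among genes ordered by these bases and cut into 5 parts of equal size, hosts made up 2.06%, 4.76%, 8.10%, 9.03% and 22.9% from the shortest to the longest part. Per 100 kb of coding sequence, however, the numbers of regions were 8.88, 8.86, 9.73, 8.06 and 11.2, against 9.93 over all genes. The share of genes hit thus went mainly with length, and the longest genes had the highest density.

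The genes with the most regions were mainly long ones. The gene dig-1, which encodes a giant matrix protein, and C14B4.2, which has no given name, each held 6. The myotactin gene let-805, the titin-like gene ttn-1 and the perlecan gene unc-52 each held 5. For ttn-1 and dig-1, the longest and next longest of all 13338 genes, that is 0.0911 and 0.153 regions per kb. For unc-52 it is 0.407 per kb and for C14B4.2, with 5331 bases, 1.13 per kb. Genes with 4 regions, named after their values were seen, were unc-44 (an ankyrin), cla-1, arcp-1 and ptr-22 (a Patched-related gene), of which ptr-22 had the highest density at 1.59 per kb. The unc-44 regions with signals of 29.3 and 24.98 overlap and meet the same replicate 1 peak (19.4), so they may not be separate sites.

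C14B4.2 was the densest of the genes with more than 4 regions. Its signals were 34.3, 30.7, 26.3, 26.3, 22.7 and 22.3. A replicate 1 peak overlapped 5 of the 6, and a replicate 2 peak likewise 5 of the 6. The strongest had signals of 13.7 in replicate 1 and 25.4 in replicate 2. In ptr-22 the 4 signals ran from 19.1 to 25.1, and in let-805 all 5 lay between 18.7 and 22.0, near the floor of the list. GC contents at the C14B4.2 summits ran from 41.3 to 52.7%.

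Genes of the basement membrane, the sheet of matrix proteins along which cells migrate, held more regions per length than genes at large. Of 11 such genes 6 were hosts, with 14 regions, or 25.2 per 100 kb (exact Poisson 95% interval 13.8 to 42.3), against 9.93 over all genes. The 14 regions compare with 5.51 at the mean density and 7.32 at the densities of the GC steps above, and the coding GC content of the list was 43.4%. The 5 unc-52 regions had signals of 33.1, 30.4, 23.9, 23.8 and 20.4. The emb-9 gene, for a type IV collagen chain, had 28.5, 26.95 and 21.1. The other hosts, named after their values were seen, were epi-1 (a laminin chain, 3 regions of 27.2, 27.1 and 18.8), fbl-1 (fibulin, 21.8), nid-1 (nidogen, 21.4) and mig-6 (papilin, 18.4). A peak in both replicate lists was found at 5 of the 14, against 49.5% of all coding exon regions. Most of the 14 lay in unc-52, emb-9 and epi-1, whereas the Poisson interval treats regions as independent. The interval may thus be too narrow, and the same limit applies to the gene lists below. All the lists were chosen with earlier results of these data known.

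Cuticle collagen genes, short genes for the proteins of the worm's outer coat, also held many. Of 120 genes 27 were hosts (22.5%), with 29 regions, or 28.1 per 100 kb (18.8 to 40.3). Their coding sequence was the richest in GC of all lists, at 52.2%. The 29 regions compare with 10.3 at the mean density and 20.3 at the densities of the GC steps. Signals ran from 18.5 to 31.4 with a median of 23.3, led by col-115 (31.4, with 14.9 in replicate 1 and 12.2 in replicate 2) and col-42 (29.8, with a peak in replicate 2 alone, at 17.2). A replicate 2 peak overlapped 26 of the 29 and a replicate 1 peak 16, with both at 13. Of collagen coding windows, 12.5% consisted largely of recurring words, so reads of similar collagen genes may not be told apart there. Such windows were found at 4 of all 1421 coding exon regions. At the col-115 and col-42 summits the share of recurring words was 0%.

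Regulators of mesoderm, the tissue in which UNC-39 has known roles, had 5 hosts among 19 genes, with 6 regions, or 29.6 per 100 kb (10.9 to 64.4). The 6 regions compare with 2.01 at the mean density and 2.05 at the densities of the GC steps, and the list's GC content was 40.1%, close to all coding sequence. The homeobox gene ceh-51, which specifies mesoderm of the early embryo, held 2 regions, with signals of 26.1 (11.0 in replicate 1 and 18.2 in replicate 2) and 23.2 (19.1 and 9.34). The Pbx-type homeobox gene ceh-20 held 1, at 24.9 (12.3 and 7.74). The remaining hosts, named after their values were seen, were fozi-1 (23.2), a zinc finger gene of the postembryonic mesoderm, the T-box gene tbx-2 (21.1) and ceh-34 (18.5), itself a homeodomain gene of the sine oculis type. For tbx-2 and ceh-34 a peak was found in replicate 2 alone. With 6 regions the interval is wide.

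Chemoreceptor genes, the largest list, were low. Of 1286 genes 54 were hosts (4.20%, 3.17 to 5.44), against 9.37% of all genes, with 56 regions, or 5.12 per 100 kb (3.87 to 6.64). Their coding sequence had the lowest GC content of the lists, 35.8%, and the 56 regions compare with 108.6 at the mean density and 72.8 at the densities of the GC steps. The strongest were in srz-25 (38.8, with 16.8 in replicate 1 and 21.4 in replicate 2) and str-238 (32.9, with 18.7 and 10.04). Cytochrome P450 genes had 4 hosts among 66, with 4.79 regions per 100 kb (1.30 to 12.3), against 9.93 over all genes, and the 4 regions compare with 8.29 at the mean density and 6.52 at the densities of the GC steps. They were led by cyp-42A1 at 36.5 and followed by cyp-33D3 at 24.7. F-box genes had 18 hosts among 284, led by fbxb-7 (31.8) and fbxb-35 (26.0), with 18 regions against 22.1 at the mean density and 16.6 at the densities of the GC steps, so they were not low for their GC content. C-type lectin genes had 15 among 199, with 16 regions against 18.5 and 20.1 on the same 2 bases, led by clec-78 and then clec-19 (26.1).

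Lists tied to muscle and cell migration lay near the mean. Genes of muscle structure, a list that also holds unc-52, had 8 hosts among 24, with 17 regions against 14.7 at the mean density and 17.3 at the densities of the GC steps, and 10 of the 17 were in unc-52 and ttn-1. The strongest ttn-1 region had a signal of 29.1. Genes of axon guidance and cell migration had 11 hosts among 45, with 18 regions against 13.96 at the mean density and 16.1 at the densities of the GC steps, led by unc-44 (29.3, with 19.4 in replicate 1 and 16.6 in replicate 2) and unc-53 (27.1, with 11.5 and 6.94). Nuclear receptor genes had 21 among 221, with 24 regions against 22.1 and 18.2 on these 2 bases, led by nhr-96 (31.6) and nhr-118 (30.6). The homeobox genes named ceh had 4 hosts among 37, with 5 regions against 3.67 and 3.69, led by ceh-51 and ceh-20.

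The remaining lists held at most 8 regions each, with wide intervals that all included the 9.93 per 100 kb of all genes. Actin, tubulin and spectrin genes had 3 hosts among 14, with 5 regions against 3.25 at the mean density and 4.74 at the densities of the GC steps. The strongest were in sma-1 (a heavy spectrin, 34.6) and tbb-2 (a tubulin, 30.3). Motor genes had 4 hosts among 18, with 5 regions against 5.46 and 5.66 on these 2 bases, led by klp-7 (30.3) and dhc-4 (20.9). The heat shock and chaperonin list had 3 among 38, with 3 regions against 4.08 and 4.60, in hsp-90 at 36.1, cct-5 at 21.3 and hsp-1. Translation factors had 3 among 25, with 3 regions against 2.02 and 2.52, led by iff-2 at 23.6 and eif-3.G at 22.2. ABC transporters had 6 among 27, with 8 regions against 7.005 and 7.01, led by haf-2 at 26.5 and haf-1 at 25.04. Ubiquitin ligase and proteasome genes had 6 among 28, with 8 regions against 5.08 and 7.35, led by eel-1 at 26.4 and rpn-1 at 22.2. Histone (0 of 9 genes), cytosolic ribosomal protein (0 of 27) and vitellogenin genes (0 of 1) had no host, against 0.366, 0.773 and 0.492 regions at the mean density. Few of their coding bases meet the rule, so a lack of regions was not detectable there.

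**Figure D5:**
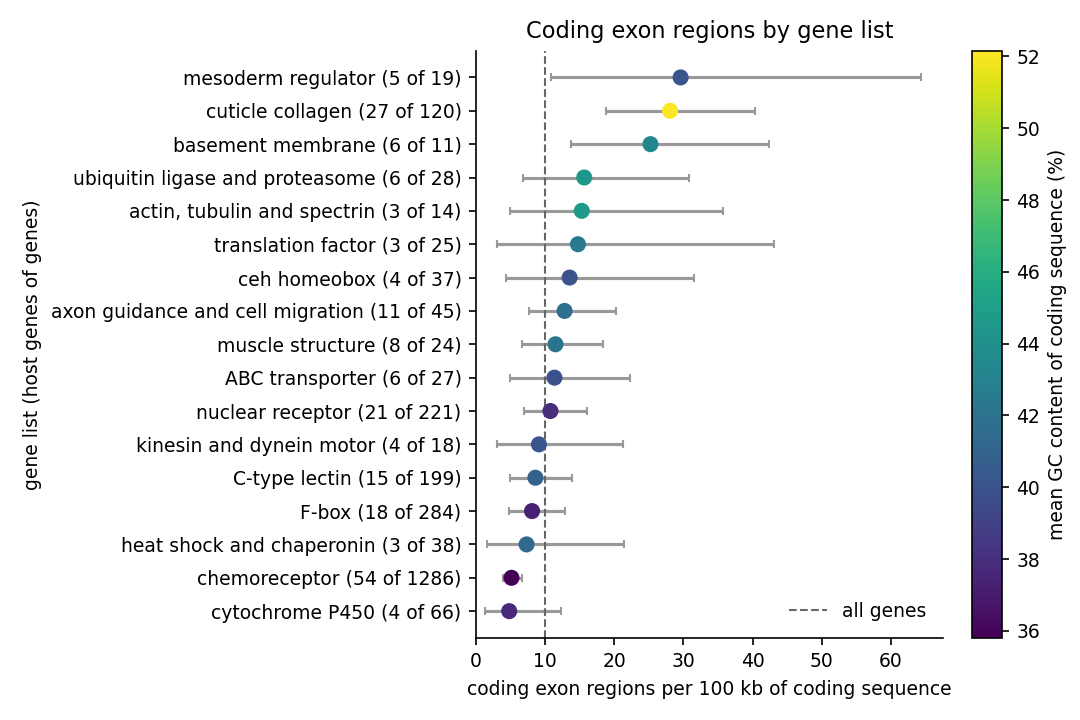
Coding exon regions per 100 kb of coding sequence (x axis) for the gene lists with at least 20 kb (y axis, with host genes of genes), coloured by mean GC content of the coding sequence; bars are exact Poisson 95% intervals and the dashed line is the 9.93 of all genes. The intervals treat regions as independent. Mesoderm regulator, cuticle collagen and basement membrane genes lie at 29.6, 28.1 and 25.2, and chemoreceptor and cytochrome P450 genes at 5.12 and 4.79.

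Host genes were somewhat more likely than others to have UNC-39 signal at their own promoter. A pooled summit lay in the 1000 bp upstream of a start site of 215 hosts (17.2%), against 12.2% of all 13338 genes (1630), and an IDR summit of 22 hosts (1.76%), against 0.690% (92 genes). The 22 include ecps-1, whose coding exon region was among the 15 strongest, and mnp-1, where the regions lie close together. They also include ceh-20 of the mesoderm list, iff-2 and, named after their values were seen, the coactivator gene cbp-1, the RFX factor gene daf-19 and the chaperone gene hsp-1. The strongest coding exon region of each of the 22 had a signal of 18.7 to 36.9 with a median of 22.9, against a median of 21.6 over all 1250 hosts. Of those named here, ecps-1 had 36.9, mnp-1 had 28.7, ceh-20 had 24.9, iff-2 had 23.6, cbp-1 had 21.9, daf-19 had 19.2 and hsp-1 had 18.7. Hosts are longer than other genes and their promoters were not chosen for length, so the part of gene size in these shares was not tested.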

How the data were processed

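Peak lists of 2 ChIP-seq replicates, of the pooled replicates and after IDR, on ce11, were used as the authors deposited them; the ce10 lists were not used. Relaxed lists were derived from replicate and control alignments, and the IDR list from these, per the deposited text files. Which aligner and peak caller were run, with which settings and depth, was not given in the sources used here. Values in the deposited signal column are scores of the authors’ peak caller and were compared only within a list. The deposited −log10 q value was printed once, and the p-value column was not used. The deposited summit offset lay at the middle of the peak in 9045 of 9046 pooled regions, and the width was 376 bp in all but 1.

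Classes came from Ensembl release 115 (WBcel235), in the order promoter, small RNA gene, UTR, coding exon, noncoding exon, intron and intergenic, with stop codons counted as coding. Coordinates are 1-based. Per-base shares replaced chance placement, and exact 95% Clopper-Pearson intervals for shares cover counting error alone. With 1 group no test between groups was made. The class assignment was checked at 400 positions drawn at random on chromosomes II to V. A separate coding of the same rule gave the same class at 400 of 400.

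Named genes were hosts of regions that overlap IDR regions, of the 15 strongest regions, the 5 with the most regions, and up to 2 per list by signal for 20 lists. Members and lists were chosen with earlier results of these data known. Alternatives were other distances, overlaps, windows and list thresholds, each replicate's list alone and, chosen after seeing the data, stop codons not coding. Python 3.11.15, numpy 2.4.6, pandas 2.3.3, scipy 1.17.1 and matplotlib 3.10.9 were used.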

Additional observations from a re-analysis of the deposited data

How the results depend on the processing

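No paired analysis was possible because both replicates belong to 1 group. Of 69 values recomputed for 7 results under other settings, 56 stayed within the interval, the spread or 1.5 times the count, and 13 did not. The spread, used for GC content, was the SD of the means from the 2 replicate lists. Those means are among the values judged, so for them this measure decides little, and both lay below the 43.5% of the pooled list. With only the stronger part of each list, coding exon regions numbered 629, with a pooled share of 21.9%, a median signal of 24.7 and 65.7% in both replicate lists. An upstream distance of 500 bp gave a pooled share of 27.3%, and 2000 bp gave 18.9%. With 1 replicate's list in place of the pooled list, the number ran from 2286 to 5722, the share from 22.0% to 29.1% and the mean GC content from 41.0% to 42.5%; the lists differ in length by construction, and the cause of the other shifts was not tested. The share in both replicate lists was 31.6% when summits had to lie within 100 bp and 43.0% with an overlap of at least 50%. The coding exon share of IDR summits ran from 0.641% to 1.28% under the settings tried. The share of coding exon regions that overlap an IDR region ran from 0.0699% (the replicate 2 list alone) to 0.318% (the stronger part of each list). Leaving stop codons out of the coding sequence, chosen after seeing the data, gave 1418 regions. Depth is unknown, and 2 IDR summits in coding exons limit what can be said of that class.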
